A study of Mus musculus with 6 samples.

Results

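Transient receptor potential (TRP) channels are cation channels of the plasma membrane and of inner membranes, and 7 of their genes are described here in a mouse neuronal cell line before and after differentiation. The members are Trpm5, Trpm4, Trpm7, Trpc1, Trpv2, Mcoln1 and Pkd2, each found as 1 row by its symbol in the authors' deposited table of 26436 genes. They were named one by one with the levels and fold changes of this comparison already known. Their values below are therefore a description, and their counts support no statement about TRP channels as a family. RNA was sequenced from CAD cells, a catecholaminergic line of the mouse central nervous system. The differentiated group held 3 libraries from cells kept for 5 days in DMEM/F12 with insulin, transferrin and selenium, with no serum named in the labels. The undifferentiated group held 3 libraries from cells grown in DMEM/F12 with 10% fetal bovine serum. All cells are of 1 line. Medium and differentiation state changed together between the groups, so loss of serum, the added supplement and differentiation cannot be told apart.

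TRP channels are built from subunits with a pore between transmembrane helices, and they are sorted into families by sequence: canonical (TRPC), melastatin (TRPM), vanilloid (TRPV), mucolipin (TRPML, genes named Mcoln) and polycystin (TRPP, gene Pkd2), with TRPA beside them. Many open downstream of phospholipase C, when a receptor at the surface leads to release of calcium from stores and to loss of the membrane lipid PIP2. Some, such as TRPM4 and TRPM5, are opened by internal calcium and pass sodium and potassium but hardly any calcium, so that a rise of calcium is turned into depolarization.

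The promoter sequences of the members differ in their count of CpG, and 3 are shown for that contrast. RefSeq start sites (GRCm38.p6) gave a promoter window of 300 bases, 250 before and 50 after the start, for 6 of the 7 members, and Trpm4 had none. The lines run 5′ to 3′ in the direction of the gene up to 30 bases after the start, with each CG in capitals, for Trpm5 (chr7:143094613-143094892, minus strand), the first of 3 Trpv2 starts (chr11:62574236-62574515, plus strand) and Mcoln1 (chr8:3500269-3500548, plus strand).
Trpm5: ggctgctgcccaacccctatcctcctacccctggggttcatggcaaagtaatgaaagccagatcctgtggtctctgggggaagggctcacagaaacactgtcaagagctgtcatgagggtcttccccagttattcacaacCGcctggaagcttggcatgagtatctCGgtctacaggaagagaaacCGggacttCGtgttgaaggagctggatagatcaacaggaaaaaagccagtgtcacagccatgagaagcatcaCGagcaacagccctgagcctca
Trpv2: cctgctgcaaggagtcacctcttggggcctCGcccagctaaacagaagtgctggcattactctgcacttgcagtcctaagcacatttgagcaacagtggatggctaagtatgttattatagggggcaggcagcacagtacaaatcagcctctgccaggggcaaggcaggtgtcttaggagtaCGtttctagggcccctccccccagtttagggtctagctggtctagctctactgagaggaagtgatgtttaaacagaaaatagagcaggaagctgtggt
Mcoln1: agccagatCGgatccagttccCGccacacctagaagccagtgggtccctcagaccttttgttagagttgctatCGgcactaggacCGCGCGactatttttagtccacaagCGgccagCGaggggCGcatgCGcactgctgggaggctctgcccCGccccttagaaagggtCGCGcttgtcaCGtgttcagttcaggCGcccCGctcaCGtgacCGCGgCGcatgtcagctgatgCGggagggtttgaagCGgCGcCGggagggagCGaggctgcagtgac
The whole window of Trpm5 held 5 CpG, and the windows of the 3 Trpv2 starts held 2, 2 and 7. The windows of Trpm7, Mcoln1 and Trpc1 held 35, 30 and 22, and that of Pkd2 held 9. The median over all 32851 promoter windows was 7 CpG. Trpm5 and Trpv2 had counts at or below that median at every start. The other members with a window lay above it, Pkd2 with its 9 being close to it. Trpm5 and Trpv2 are also the members called higher in differentiated cells. The members were chosen with their fold changes known, so no link between CpG count and change is read from them.

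A second feature was shared by Trpm7 and Mcoln1. Each had 2 copies of CACGTG, the palindromic E-box read by many basic helix-loop-helix factors, in its window. The stretch from 100 bases before to 30 bases after the start is shown with CACGTG in capitals, for Trpm7 (chr2:126876232-126876361, minus strand) and Mcoln1 (chr8:3500419-3500548, plus strand).
Trpm7: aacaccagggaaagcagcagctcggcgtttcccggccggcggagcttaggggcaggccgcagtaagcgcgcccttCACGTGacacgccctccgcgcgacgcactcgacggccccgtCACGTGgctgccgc
Mcoln1: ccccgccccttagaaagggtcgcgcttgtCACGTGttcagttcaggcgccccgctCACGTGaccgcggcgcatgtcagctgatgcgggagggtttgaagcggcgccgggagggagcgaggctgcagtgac
In each gene 1 of the copies lay inside the longer TCACGTGA, the core letters of the site read by the lysosomal regulators TFEB and TFE3. In at least 1 copy, CACGTG stood in 7.15% of all windows and TCACGTGA in 0.974%, whether or not the gene was expressed here. Among 8456 tested genes with a promoter and a mean normalized count of at least 100, 886 held CACGTG and 172 held TCACGTGA. The share of windows with 2 copies was not computed. CACGTG is also a form of CANNTG, which stood in 72.3% of windows, and in those of Trpm7, Trpc1, Trpv2 and Mcoln1. GGGCGG, on either strand, was present in Trpc1 (3 copies) and Mcoln1 (1 copy) and in 35.7% of windows. TATAAA was found at 1 Trpv2 start and in 13.6% of windows. TGACGTCA was in no member's window and in 1.79% of all windows. A match describes these letters only.

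The deposited table gives 1 mean normalized count and 1 fold change per gene, and per-library values were not analysed here. Implied group means, as they are called below, follow from this pair by arithmetic, taking the mean as that over 3 differentiated and 3 undifferentiated libraries, and they carry no error of their own. The mean normalized counts of all genes summed to 38846803, and library depths were not analysed here. A gene was counted as called at the authors' Wald adjusted p under 0.05. Of 20285 tested genes 7278 were called (35.9%), 18.2% higher and 17.7% lower in differentiated cells, and the median log2 fold change was 0.01. Among the 13197 genes whose mean reached 100, the share called was 47.5%. Of the 7 members 3 were called, 2 higher and 1 lower, which was 42.9%, and nothing is read from that count because the members were chosen from this contrast. All 7 passed the authors' filter on low values, and 6 had a mean of at least 100. In fold change, 6 members were above 0 and 1 was below.

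The line's own markers were partly weak. Th, the tyrosine hydroxylase gene, had an implied 102 normalized counts in differentiated and 80.6 in undifferentiated cells, and Dbh, which makes noradrenaline, had 14.0 and 569, from the authors' deposited table. The transporter genes Slc6a2 and Slc6a3 had no row. All 6 neuronal markers (Tubb3, Map2, Snap25, Stmn2, Elavl4 and Syp) had means above 100. Of 6 macrophage markers 3 had a row, at a summed 5.42 normalized counts in differentiated and 3.15 in undifferentiated cells. Of 6 glial markers 4 had a row, with Gfap at a mean of 4.15 normalized counts, and the 2 tested were not called.

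Trpm5 changed most. It encodes a calcium-activated monovalent cation channel, best known from sweet, bitter and umami taste cells and tuft cells, and it is also found in pancreatic beta cells. Its implied mean was 285 normalized counts in differentiated cells, against 23.0 in undifferentiated cells. In the authors' deposited table it rose by 3.63 log2 units (SE 0.27), a 12.4-fold difference with a 95% interval of 3.11 to 4.16 on the log2 scale. Only 11 of the 13197 genes at or above a mean of 100 had a higher fold change. In bulk RNA, a change in the number of expressing cells and a change of RNA per cell cannot be told apart. Its standard error was 1.29 times the median of genes with a like mean. The gene lies on chromosome 7 from 143069153 to 143094642 (GRCm38), on the minus strand. Tssc4, on the plus strand, lies wholly inside its bounds from 143069249 to 143071093, with a mean of 1691 normalized counts and, in the authors' deposited table, a log2 difference of -0.40 (SE 0.12). The libraries were stranded per the labels, but the strand setting of the counting is not given in the sources used here, so reads of Tssc4 and Trpm5 in that stretch may not have been told apart. The part of such reads in the Trpm5 values was not tested.

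Trpm4, the closest relative of Trpm5 in sequence and gating, is expressed more widely, in heart, immune cells and neurons. Its implied mean was 143 normalized counts in differentiated cells, against 96.7 in undifferentiated cells. The log2 fold change in the authors' deposited table was 0.56 (SE 0.25, 95% interval 0.08 to 1.04), and it was not called over all genes. It was called when p-values were readjusted over the genes whose mean reached 100 (adjusted p 0.0457) or centred on the implied group totals (adjusted p 0.0493). Apart from Bonferroni adjustment, its adjusted p lay between 0.0457 and 0.155 over the alternatives. A ribosomal protein pseudogene, Rpl14-ps1, lies within Trpm4 on the other strand (chromosome 7, 45324965 to 45325617) with a mean of 23665 normalized counts, which may hold reads of its parent gene. Per kilobase of exon, Trpm5 stood at 44.6 and Trpm4 at 13.2 implied normalized counts in differentiated cells. In undifferentiated cells Trpm5 stood at 3.59 and Trpm4 at 8.94. The level of Trpm5 over that of Trpm4, per kilobase, was thus 3.38 in differentiated and 0.402 in undifferentiated cells, and 2.09 and 0.249 with the longest transcript as length.

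**Figure D1:**
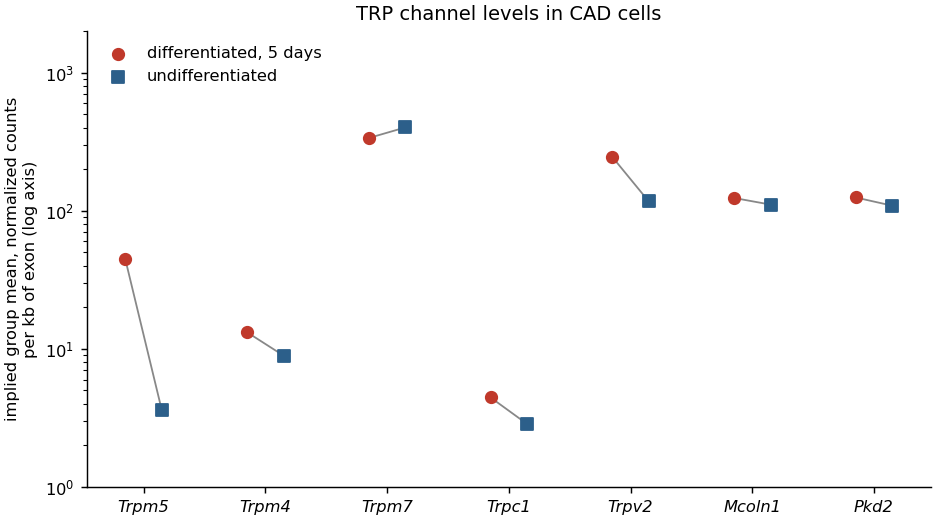
Implied group mean of each member in normalized counts per kilobase of exon, on a log axis, with differentiated cells as circles at left and undifferentiated cells as squares at right of each pair. Trpm5 stands at 44.6 against 3.59, and the lines of Mcoln1, Pkd2 and Trpm7 are nearly flat; no error can be drawn, because the deposited values have none per group.

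Trpm7 had the highest level of the members. It encodes a channel joined to a kinase domain, present in nearly all cells and known for magnesium, zinc and calcium entry. Its implied mean was 3815 normalized counts in differentiated cells, against 4544 in undifferentiated cells. In the authors' deposited table it fell by 0.25 on the log2 scale (SE 0.09, 95% interval -0.44 to -0.07), a 1.19-fold difference. Its call did not hold at the stricter threshold of 0.01 or when the trend of fold change with mean expression was removed (log2 fold change -0.16, adjusted p 0.181). Apart from Bonferroni adjustment, the adjusted p of Trpm7 lay between 0.00404 and 0.181 over the alternatives. Trpm7 spans chromosome 2 from 126791565 to 126876230 on the minus strand.

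Trpv2 rose. It encodes a vanilloid-family channel of sensory and other neurons and immune cells, reported in mouse cells to move to the surface after insulin-like growth factor. Its implied mean was 1103 normalized counts in differentiated cells, against 523 in undifferentiated cells. The log2 fold change in the authors' deposited table was 1.08 (SE 0.17, 95% interval 0.74 to 1.41), or 2.11-fold. Its standard error was 1.36 times that of genes of like mean, the highest such ratio among the members. The gene lies on chromosome 11 from 62574486 to 62600515 on the plus strand.

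Trpc1 was the weakest member. It encodes a canonical subunit that joins other TRPC subunits and has been tied to calcium entry after store release. The implied mean was 35.7 normalized counts in differentiated cells, against 23.0 in undifferentiated cells. In the authors' deposited table its log2 fold change was 0.64 (SE 0.43), with a 95% interval from -0.20 to 1.47, and was not called. Trpc1 lies on chromosome 9 from 95705082 to 95750375 on the minus strand.

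The members of inner membranes and the cilium were well expressed and had narrow intervals around small differences. Mcoln1 encodes the lysosomal channel TRPML1, which releases calcium in response to the lipid PI(3,5)P2 and is mutated in mucolipidosis type IV. Its implied mean was 938 normalized counts in differentiated and 836 in undifferentiated cells, a log2 difference of 0.17 (SE 0.12, 95% interval -0.07 to 0.40) in the authors' deposited table. Pkd2 encodes polycystin-2, a channel of the primary cilium and the endoplasmic reticulum that is mutated in polycystic kidney disease. For Pkd2 the implied mean was 1271 normalized counts in differentiated and 1106 in undifferentiated cells, a log2 difference of 0.20 (SE 0.13, 95% interval -0.04 to 0.45) in the authors' deposited table. Neither was called. Mcoln1 lies on chromosome 8 from 3500457 to 3515232 and Pkd2 on chromosome 5 from 104459450 to 104505819, both on the plus strand.

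**Figure D2:**
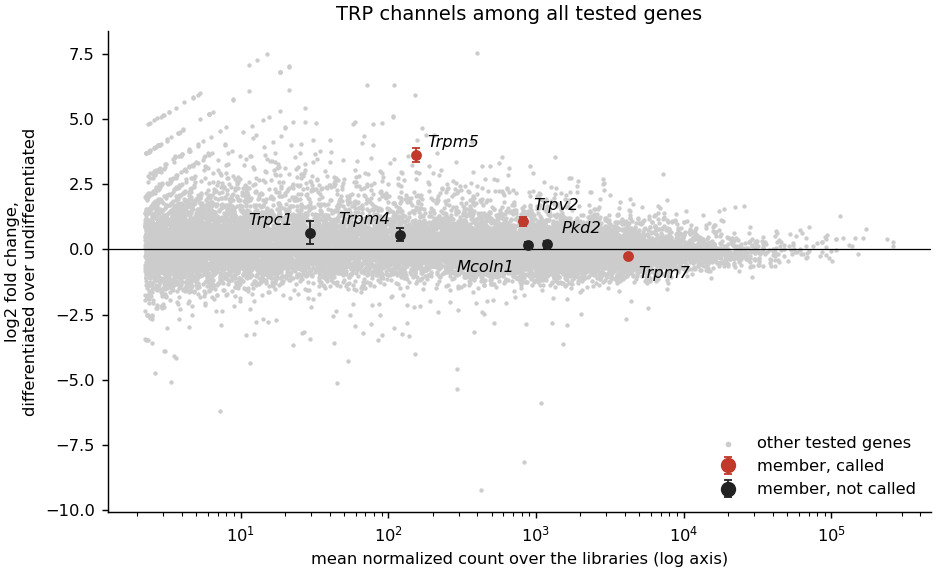
Log2 ratio, differentiated to undifferentiated cells, against the mean normalized count (log axis), with every tested gene as a grey dot and each member with its standard error. Trpm5 (3.63) lies above most genes of its level, as does Trpv2 (1.08), and the other members lie inside the dense band.

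Per kilobase of exon over both groups, the mean normalized count was 369 for Trpm7, 181 for Trpv2, 117 for Mcoln1, 117 for Pkd2, 24.1 for Trpm5, 11.1 for Trpm4 and 3.66 for Trpc1. The order of the 3 in the middle depends on the length taken. With the longest transcript, Mcoln1 (307) and Pkd2 (228) came before Trpv2 (222), and the places of the other 4 were kept. Per kilobase of exon, Trpv2, Mcoln1 and Pkd2 stood at 246, 124 and 125 in differentiated cells, and at 117, 111 and 109 in undifferentiated cells. Per kilobase of the longest transcript they stood at 301, 325 and 243 in differentiated cells, and at 143, 289 and 212 in undifferentiated cells, so that the lead of Trpv2 in differentiated cells depends on the length taken. The spread of a level over libraries could not be set beside these differences.

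Of the 28 mouse TRP genes, 21 had a row, and 15 of those an adjusted p. Besides the members, 8 were tested, with 1 called higher, 1 called lower and 6 not called. Over all 15 the share called was 33.3%, near the 35.9% of all tested genes, and the median log2 fold change was 0.20, against 0.01. Trpm2, a channel opened by ADP-ribose that responds to oxidative stress, is not among the 7 members although its level was of their order. The implied mean of Trpm2 was 1292 normalized counts in differentiated and 839 in undifferentiated cells, and rose by 0.62 log2 units (SE 0.13) in the authors' deposited table. Trpc7, a diacylglycerol-gated canonical channel, fell by 1.88 on the log2 scale (SE 0.48) in that table, with implied means of 12.2 normalized counts (differentiated) and 45.0 (undifferentiated). The polycystin gene Pkd2l2, at a mean of 130 normalized counts, had, in the authors' deposited table, a log2 difference of -0.38 (SE 0.22) and was not called. The other 5 tested genes (Trpm3, Mcoln3, Trpc6, Mcoln2 and Trpv4) had means from 2.68 to 26.7 normalized counts and were not called. Trpm6, Trpc5, Trpm8, Pkd2l1 and Trpv6 had means from 0.273 to 1.84 and no adjusted p. Trpa1, Trpc2, Trpc4, Trpm1, Trpv1, Trpv3 and Trpv5 had no row.

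**Figure D3:**
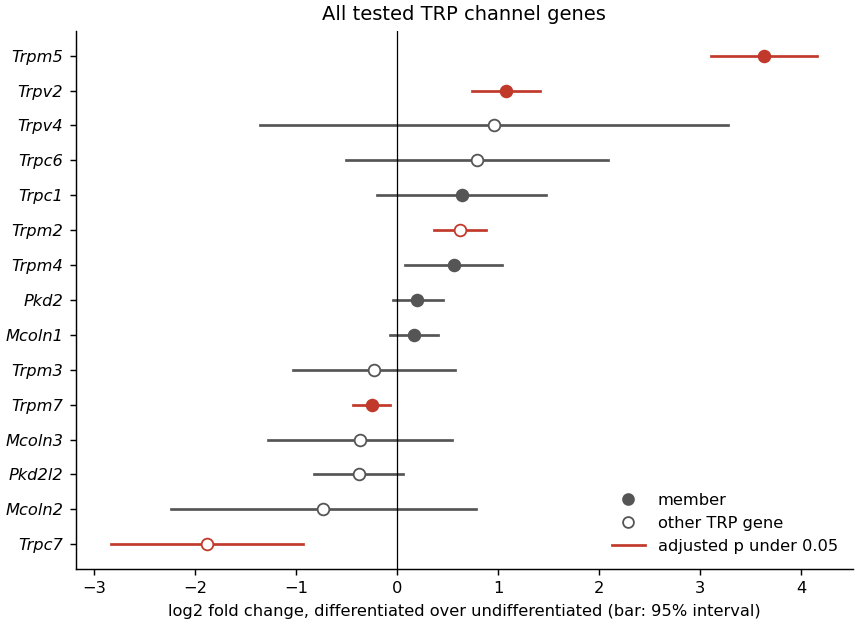
Log2 ratio, differentiated to undifferentiated cells, for the 15 TRP genes with an adjusted p, with 95% intervals; filled points are the members and red marks an adjusted p under 0.05. Trpm5 and Trpc7 lie at the ends (3.63 and -1.88), and the intervals of genes with low counts, such as Trpv4, span 0 widely.

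Trpm5 was set beside the genes that act with it in taste cells. Of 12 listed taste transduction genes, 8 had a row and 6 were tested. Of these, 3 were called higher and 0 lower (median log2 fold change 0.60), beside 18.2% higher and 17.7% lower over all tested genes. The 3 called were the only ones with means of at least 100, where 47.5% of all genes were called in either direction. Gnb3, a G protein beta subunit of that cascade, had 659 implied normalized counts in differentiated and 85.0 in undifferentiated cells, or 2.96 log2 units (SE 0.26) in the authors' deposited table. Itpr3, the inositol trisphosphate receptor of taste cells, had 780 and 323, or 1.27 log2 units (SE 0.26) in that table. The standard errors of Gnb3 and Itpr3 were 1.66 and 1.87 times the median of genes with a like mean. The beta subunit gene Gnb1 rose by 0.27 log2 units (SE 0.08) in the authors' deposited table. Of the other taste genes, the receptor gene Tas1r3 had an implied 33.8 normalized counts in differentiated and 35.2 in undifferentiated cells, and Tas1r1 had 22.2 and 17.8; neither was called. Plcb2, the phospholipase of the cascade, stood at a mean of 3.13 normalized counts, Gng13 at 2.09 and the transcription factor gene Pou2f3 at 1.09, while Gnat3, Tas1r2, Calhm1 and Calhm3 had no row. Of 9 taste and tuft cell markers, 7 had a row, with a summed 3966 implied normalized counts in differentiated and 2787 in undifferentiated cells, most of it Dclk1, which neurons express too. Their part in the change of Trpm5 was not tested. Trpm5 is itself on that list. Avil, the actin-binding protein advillin, rose by 2.48 log2 units (SE 0.46) at a mean of 40.1 in the authors' deposited table.

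Calcium stores and store-operated entry lie upstream of Trpm4, Trpm5 and the TRPC channels. Of 9 listed genes, 6 were called higher and 0 lower, with a median log2 fold change of 0.65. All 9 had means of at least 100, where 47.5% of all genes were called in either direction, and over all tested genes 18.2% were called higher. The higher ones were Itpr3, the pore subunit genes Orai3 (0.90, SE 0.18) and Orai1 (0.65, SE 0.17), Itpr2 (0.85, SE 0.24), Saraf (0.68, SE 0.09), which damps store-operated entry, and the store sensor gene Stim1 (0.27, SE 0.09), all in log2 units from the authors' deposited table. Itpr1 (-0.19, SE 0.15), Stim2 (-0.08, SE 0.13) and Orai2 (0.25, SE 0.12) were not called.

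Of 13 tested genes of phospholipase C and PIP2 supply, 1 was called higher and 3 lower (median 0.03), beside 18.2% and 17.7% over all tested genes. The lower ones were Plcb4 (-0.50, SE 0.13), Plcb3 (-0.48, SE 0.16) and the PIP2-making kinase gene Pip5k1c (-0.30, SE 0.10), in log2 units from the authors' deposited table. Of 7 calmodulin and calcium sensor genes, 3 were called higher and 2 lower (median 0.20). All 7 had means of at least 100, where 47.5% of all genes were called in either direction. S100a1 (1.11, SE 0.23) and Cabp1 (0.48, SE 0.17) were among the higher ones, and S100a10 (-0.42, SE 0.15) and Ncs1 (-0.33, SE 0.09) were lower, in log2 units from that table. Of 10 tested TRPC scaffold and partner genes, 1 was called higher (Slc9a3r1, 0.46, SE 0.16) and 2 lower (Homer3, -0.47, SE 0.13, and Fkbp4, -0.31, SE 0.07), with a median log2 fold change of 0.12. All 10 also had means of at least 100, to which the same share of 47.5% applies. Abcc8, the sulfonylurea receptor that pairs with TRPM4, had a mean of 3.33 normalized counts, and Abcc9 had no row.

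Genes that act with Pkd2 and Mcoln1 were listed next. Pkd1, the partner of polycystin-2 in the cilium, had 1864 implied normalized counts in differentiated and 1743 in undifferentiated cells (log2 fold change 0.10, SE 0.16), and was not called. Pkd1l2 and Pkd1l3 had means of 10.4 and 12.7 normalized counts and were not called, and Pkd1l1 had a mean of 0.382 and no adjusted p. Of 13 genes of lysosomal channels and PI(3,5)P2 supply, 3 were called higher and 3 lower (median 0.17). All 13 had means of at least 100, where 47.5% of all genes were called in either direction. P2rx4 (1.27, SE 0.18), the chloride exchanger gene Clcn6 (1.00, SE 0.23) and the lysosomal potassium channel gene Tmem175 (0.52, SE 0.19) were higher, in log2 units from the authors' deposited table. Tpcn2 (-0.57, SE 0.21), a lysosomal cation channel gene, Vac14 (-0.48, SE 0.10) and Tmem55a (-0.44, SE 0.14) were lower. Of 6 tested genes of the MiT/TFE factors and calcineurin, 1 was called, Ppp3ca (0.53, SE 0.11, higher). All 6 also had means of at least 100, to which the same share of 47.5% applies. Tfeb (0.19, SE 0.16) and Tfe3 (0.18, SE 0.09) were not called.

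Of 16 tested magnesium and zinc handling genes set beside Trpm7, 5 were called higher and 1 lower (median 0.19). Over all tested genes 18.2% were called higher and 17.7% lower. Of the 16 genes, 14 had means of at least 100, where 47.5% of all genes were called in either direction. The magnesium transport gene Cnnm2 (0.98, SE 0.15), the zinc exporter gene Slc30a1 (0.71, SE 0.12), Cnnm4 (0.31, SE 0.10) and Tusc3 (0.24, SE 0.10) were higher with means of at least 100, and Mmgt1 (-0.57, SE 0.17) was lower, in log2 units from the authors' deposited table. The fifth was Slc41a3 (1.35, SE 0.46) at a mean of 27.4. Trpm6, the channel that pairs with TRPM7, had a mean of 1.77 normalized counts.

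**Figure D4:**
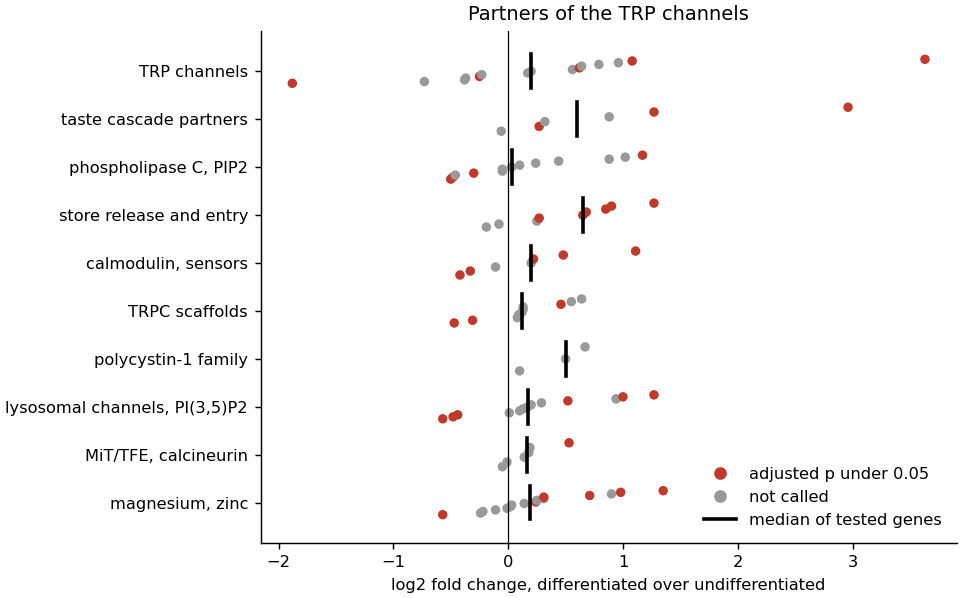
Log2 ratio, differentiated to undifferentiated cells, for each tested gene of the TRP family and its partner lists, with red points at an adjusted p under 0.05 and a black bar at each list's median. Store release and entry has its bar at 0.65 with 6 red points right of 0, and the lysosomal list has 3 red points on each side of 0.

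Position on the chromosome was not used to choose the members. The 3 nearest protein-coding genes with a row on each side gave 42 neighbours, of which 33 were tested, 7 called higher and 8 lower (45.5%), near the 47.5% among all genes that reached a mean of 100 and above the 35.9% over all tested genes. All 6 neighbours of Trpv2 were tested and none was called at an adjusted p under 0.05, the lowest being 0.0710 for Ubb, with log2 fold changes from -0.22 to 0.23. Beside Trpm5, Cd81 rose by 0.80 log2 units (SE 0.13) and Tssc4 fell, while Kcnq1 (mean 2.18), Cdkn1c (3.14), Ascl2 (1.35) and Tspan32 (17.7) had low normalized counts. Next to Trpm7, Gabpb1 (-0.39), Usp50 (-0.76) and Ap4e1 (-0.49) fell on the log2 scale and 3 were not called. Around Trpm4, Ppfia3 (0.72) rose, as did Hrc at a mean of 8.62 normalized counts. Around Mcoln1, Zfp358 (0.42), Pex11g (1.14) and Camsap3 (0.58) rose. Around Trpc1, Pcolce2 (-2.68), U2surp (-0.29) and Atr (-0.29) fell, and around Pkd2, Sparcl1 (2.61) rose and Nudt9 (-0.35) fell. These are log2 units from the authors' deposited table.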

How the data were processed

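RNA of CAD cells was sequenced in 3 differentiated and 3 undifferentiated libraries as single-end reads of 50 bp, per the labels' protocols. Reads were handled with FastQC 0.11.5, Trimmomatic 0.36 and STAR 2.5.1a on build GRCm38.p6, and groups compared with DESeq2, per the submitters' processing notes. For the read counter, its strand setting and the annotation, nothing is given in the sources used here. No label states that each library had a culture of its own. P-values may then measure technical spread between samples alone.

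Per the file headers, the authors' deposited table holds a signal (the mean normalized count), a log2 fold change and its standard error on the log2 scale, a Wald score, and a p-value with its adjusted p-value. The deposited score equals the fold change over its error in every row (largest difference 1.24e-13), and the authors' adjusted p-value matches Benjamini-Hochberg values computed over 20285 genes (largest difference 1.44e-15). The name of that comparison gives the direction. A sheet of pathway statistics was also read, and its 9 blocks that may hold values of single libraries were not used. A further sheet, which repeats extreme rows, was not used.

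No count model could be fitted, so the authors' test was kept. The plan foresaw both cases. The members and the gene lists were chosen with earlier results of these data known. GENCODE M21 (GRCm38) matched 26311 of the gene IDs and gave lengths and positions; promoter sequences are RefSeq's (GRCm38.p6). The named genes were all members, the other TRP genes with a row, up to 6 called genes per list with a mean of at least 100, all genes of lists with at most 5, and called neighbours; taste genes at low counts, further genes not called and Slc41a3 were added after their values were seen, and Plcd1 falls outside the rule. A few genes that the rule would name are not reported here. Likeness of pattern across samples was not computed. Alternatives readjusted p over other gene sets, centred the fold changes or removed trends (statsmodels 0.14.6 in Python 3.11.15). The calling step was tested on simulated data. These were drawn with the deposited standard errors, so they check the code only and say nothing about the calls made here. The median standard error was 0.13 where the mean reached 100 and 0.65 below that.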

Additional observations from a re-analysis of the deposited data

How the results depend on the processing

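No fold change of the 15 tested TRP genes changed sign when fold changes were centred or a trend was removed. The other alternatives change only the threshold or the genes tested, and genes under a minimum mean have no value there, among them Trpc1 at a minimum of 100. The count of called genes was 7278, and it was 2329 with Bonferroni adjustment and 3786 with a minimum of 1.5-fold. Over all TRP genes 5 were called, and 3 with Bonferroni adjustment, where Trpm7 and Trpc7 were lost. Of the 7 members, between 2 and 4 were called under the alternatives, and Trpm5 and Trpv2 were called under all of them. Trpm7 was lost at an adjusted p under 0.01, with Bonferroni adjustment, with a minimum of 1.5-fold and with the mean expression trend removed. Trpm4 was gained over the genes whose mean reached 100 and when centred on the implied group totals. The centres were 0.058 (median protein-coding gene) and -0.023 (implied group totals) on the log2 scale. Fits without single libraries, other size factors and other filters on counts need library values and were not run. No paired analysis was possible because no library values were analysed; the groups share no replicate number in the labels.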

Other observations

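The authors' deposited pathway sheet lists 83 pathways as higher in differentiated cells. It gives the inflammatory mediator regulation of TRP channels a mean set statistic of 1.47 (q-value 0.0256, 82 genes), taste transduction 1.51 (q-value 0.0235, 44 genes) and calcium signaling 2.54 (q-value 0.000181, 150 genes). The lysosome pathway has 2.18 (q-value 0.00158, 115 genes). Ordered by the authors' p-values, these 83 pathways hold TRP channel regulation at rank 50, taste transduction at 46, lysosome at 13 and calcium signaling at 8. The genes of these sets are not listed in the sheet, so the part of the TRP genes in them was not tested.

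CpG count and fold change were also set side by side over genes, after the contrast between the members had been seen. Tested genes whose mean reached 100 and which had a RefSeq promoter numbered 8456. Each gene was classed by the first of its windows by coordinate. Of the 8456 genes, 892 had at most 7 CpG in that window, as Trpm5 and Trpv2 do. Of these 36.2% were called higher and 11.7% lower in differentiated cells, with a median log2 fold change of 0.19. Of 2611 genes with 8 to 19 CpG, as Pkd2 has, 26.4% were called higher and 21.7% lower, with a median of 0.05. Of 4953 genes with at least 20 CpG, as Trpm7 and Mcoln1 have, 21.0% were called higher and 27.4% lower, with a median of -0.04. Trpc1, whose window also holds more than 20, is not among them because its mean was 29.4. Genes are not independent replicates, and their level and function may differ between these classes, which was not tested. Of 172 genes whose window holds TCACGTGA, as those of Trpm7 and Mcoln1 do, 20.9% were called higher and 22.1% lower, against 24.3% and 24.0% of all 8456. Of 886 genes whose window holds CACGTG, with or without the longer motif, 18.2% were called higher and 27.5% lower (median -0.07).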
